A study of Mus musculus with 24 samples.

Results

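The proteasome genes were the 49 genes of the deposited table whose symbols name a proteasome subunit, activator, inhibitor or chaperone (Psma to Psmg, each with a number) and whose mean over the 24 libraries was above 5 normalised counts. They stood among 17270 genes in all, of which 15982 had a mean above 5. Every symbol that the pattern matched lay above this limit, from Psme2b with a mean of 59.9 normalised counts to Psmd2 with 3795. The rule itself used no measured value but this mean, although the genes were picked as a group with earlier results of these data known. The libraries held brain microvessels of male C57BL/6J mice aged 10 to 12 weeks. The right middle cerebral artery was occluded with a filament for 60 minutes and then reperfused (tMCAO), or the filament was withdrawn at once (sham). Microvessels were taken 24 h or 7 days later from the ipsilateral and the contralateral hemisphere, which gave 8 groups of 3 libraries, and no group carried an engineered allele. All animals, sham included, were operated under isoflurane and received buprenorphine for pain before and after surgery, which was still being given at 24 h and had ended by 7 days. Each library was a pool of whole hemispheres, so that infarct, surrounding and spared tissue were mixed, and the p-values measure the spread between these pools.

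The proteasome is the protease that degrades proteins tagged with ubiquitin. Its 20S core is a stack of alpha rings, which gate the entrance, and beta rings, in which Psmb5, Psmb6 and Psmb7 carry the catalytic sites. The 19S particle caps the core with ATPases (Psmc genes) that unfold substrates and with non-ATPase subunits (Psmd genes), of which Psmd14 removes the ubiquitin chain. In immune cells and in cells exposed to interferon, Psmb8, Psmb9 and Psmb10 take the place of the catalytic subunits and form the immunoproteasome, which cuts peptides for presentation on MHC class I, and the PA28 ring of Psme1 and Psme2 can take the place of the 19S cap. By these roles there were 8 alpha subunits, 3 constitutive catalytic and 4 other beta subunits, 3 immunoproteasome subunits, 6 ATPases, 11 non-ATPase subunits, 4 activators, the inhibitor Psmf1, 4 chaperones of core assembly and 3 of base assembly. The pattern also took in Psmc3ip, which is not a subunit, and Psme2b, a near copy of Psme2 between which reads can be split or lost. The 31 alpha, beta, ATPase and non-ATPase genes without the testis-enriched Psma8 and the immunoproteasome genes are called the constitutive 26S subunits.

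Totals ran from 15924780 to 18787932 normalised counts per library, with a median of 16953257. The 10 endothelial markers summed to 306882 to 488842 counts per library and 7 neuronal markers to 945 to 20725. Against sham, 5 of the 7 neuronal markers fell ipsilaterally at 24 h and 7 of 7 at 7 days, and 8 of 8 neutrophil and monocyte markers rose at 24 h, where 8.23% and 9.95% of all tested genes fell at 24 h and 7 days and 10.0% rose at 24 h. In bulk libraries fewer cells of a type and less RNA per cell cannot be told apart. Differences below are differences of log2(normalised count + 1) from limma fitted over the 15982 genes, given with the standard error. A gene was called regulated with a Benjamini-Hochberg adjusted p below 0.05 and a change of more than 1.5-fold.

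The summed level of the 49 genes was highest ipsilaterally 24 h post-stroke. They made up 0.635%, 0.663% and 0.573% of all normalised counts in the 3 tMCAO libraries and 0.371%, 0.399% and 0.375% in the 3 sham libraries. Over the 18 sham and contralateral libraries the share ran from 0.371% to 0.490%, with a median of 0.422%. At 7 days the ipsilateral tMCAO libraries held 0.475%, 0.456% and 0.473%. The libraries 24 h after tMCAO were thus apart from all others, whereas those at 7 days lay inside the range of the controls.

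**Figure D1:**
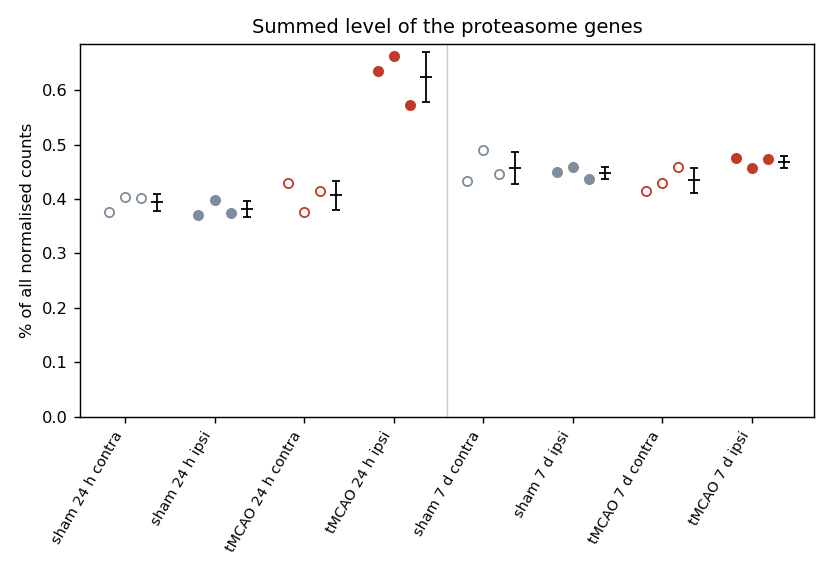
Summed level of the 49 proteasome genes in percent of all normalised counts for each of the 24 libraries in 8 groups (grey, sham; red, tMCAO; open, contralateral; filled, ipsilateral; bar, mean ± SD, n = 3). The 3 ipsilateral tMCAO libraries at 24 h, at 0.573% to 0.663%, lie above all others.

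In the ipsilateral hemisphere 24 h post-stroke, transcripts of the whole 26S particle were higher than after sham. Of the 49 genes, 38 rose and none fell, where 10.0% of all tested genes rose. The median difference over the 49 was 0.73, against -0.024 over all genes. All 31 constitutive 26S subunits rose, by 0.62 to 1.15, with a median of 0.76 (a fold of 1.70). With library medians centred, 31 of the 49 and 26 of the 31 rose, where 1330 of all 15982 genes did, and all 31 were above 0. The tMCAO libraries lay above the sham libraries without overlap for 46 of the 49 genes, where 25.0% of all genes did. Replicate 3 of the tMCAO group was the lowest of its group for all 31 constitutive subunits.

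Psmd14, the deubiquitinase of the lid (chromosome 2, 61711694 to 61800376, GRCm38), had the largest difference. It had 863, 850 and 826 normalised counts after sham and 1924, 2170 and 1602 after tMCAO. The difference was 1.15 ± 0.092 (adjusted p = 1.1e-07), a fold of 2.23. Psmd8, also of the lid and with the smallest difference of the non-ATPase genes, had 1704, 2009 and 1920 counts after sham and 3012, 2954 and 2662 after tMCAO (0.62 ± 0.093). For neither gene did the groups overlap. Psmd8 was below the limit on the fold with median centring (0.55), without sham replicate 1 (0.55) and without tMCAO replicate 1 (0.58). All 11 non-ATPase subunits rose, with a median of 0.67.

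The 6 ATPases of the base rose as well, with a median of 0.74. Psmc4, with the largest difference of the 6, had 1511, 1594 and 1635 counts after sham and 3551, 3572 and 2671 after tMCAO (1.03 ± 0.11). Psmc1, with the smallest, had 1824, 1966 and 2078 counts after sham and 3253, 3252 and 2657 after tMCAO (0.64 ± 0.097). Both had every tMCAO library above every sham library, and Psmc1 was below the limit on the fold with median centring (0.57).

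In the core, all 8 alpha subunits rose (median 0.81). Psma5 rose most, with 587, 609 and 584 counts after sham and 1347, 1404 and 986 after tMCAO (1.05 ± 0.13). Psma6 rose least, with 2770, 2649 and 3110 counts after sham and 4192, 4968 and 3959 after tMCAO (0.62 ± 0.15). The groups were apart for both. Psma6 was below the limit on the fold with median centring (0.55), without sham replicate 2 (0.57) and without tMCAO replicate 2 (0.52).

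The 4 beta subunits without catalytic sites rose by a median of 0.93. Psmb3 had 777, 902 and 921 counts after sham and 1953, 1956 and 1562 after tMCAO (1.07 ± 0.13). Psmb1 had 2368, 2712 and 2583 counts after sham and 4182, 4729 and 3944 after tMCAO (0.74 ± 0.12). Their differences were the largest and the smallest of these 4, again without overlap.

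The 3 constitutive catalytic subunits rose together. Psmb5, which carries the chymotrypsin-like site, had 327, 403 and 389 counts after sham and 836, 824 and 626 after tMCAO (1.02 ± 0.16, adjusted p = 9.5e-05). Psmb6, with the caspase-like site, had 1863, 2073 and 2054 counts after sham and 3688, 3790 and 3149 after tMCAO (0.82 ± 0.11). Psmb7, with the trypsin-like site, had 1424, 1458 and 1534 counts after sham and 2464, 2590 and 2260 after tMCAO (0.73 ± 0.10). The sham and tMCAO libraries were fully apart for each.

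Of the immunoproteasome counterparts, 1 of 3 rose at 24 h. Psmb8, which replaces Psmb5, had 1051, 1051 and 928 counts after sham and 1455, 1861 and 1445 after tMCAO, a difference of 0.64 ± 0.17 (adjusted p = 0.0067). Without tMCAO replicate 2, its highest library, the difference was 0.52, and without sham replicate 3 it was 0.58, all below the limit on the fold, as with median centring (0.58). Psmb9, which replaces Psmb6, had 366, 377 and 312 counts after sham and 361, 413 and 421 after tMCAO (0.18 ± 0.19, adjusted p = 0.51), and these libraries overlapped. Psmb10, which replaces Psmb7, had 1019, 1104 and 956 counts after sham and 1488, 1423 and 1322 after tMCAO (0.46 ± 0.18, adjusted p = 0.055). Its libraries did not overlap, but the difference did not pass.

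**Figure D2:**
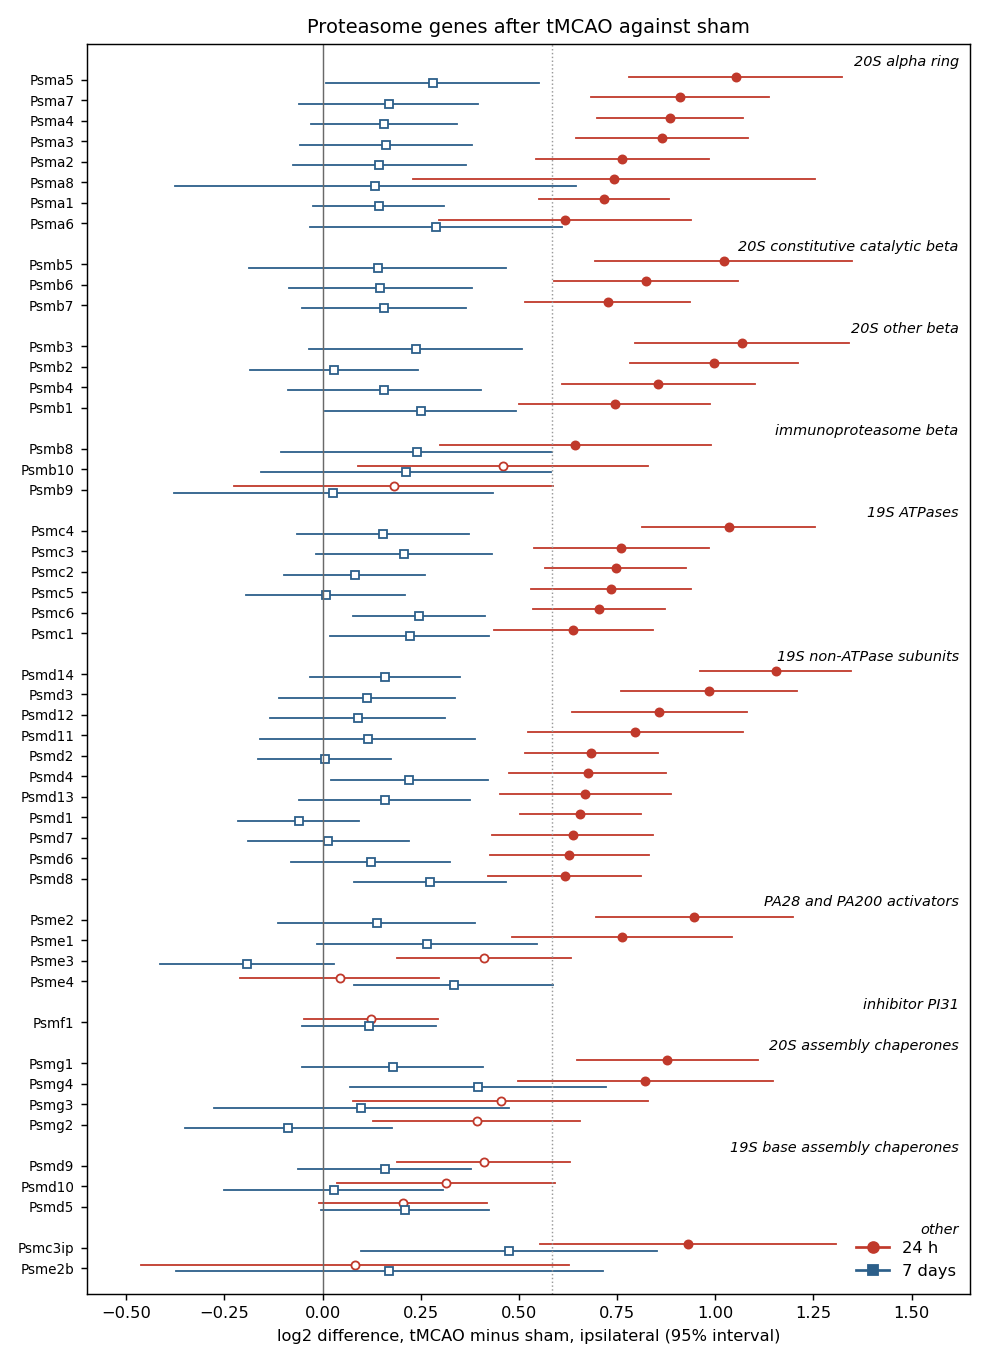
Log2 difference between tMCAO and sham in the ipsilateral hemisphere with its 95% interval for the 49 genes by subunit class at 24 h (red circles) and 7 days (blue squares), with filled symbols for genes called regulated and a dotted line at the limit of 1.5-fold. At 24 h 38 symbols are filled, and at 7 days none.

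Among the activators, the PA28 ring of Psme1 and Psme2 rose with the core. Psme2 had 973, 1074 and 992 counts after sham and 1983, 2079 and 1803 after tMCAO (0.95 ± 0.12, adjusted p = 1.4e-05). Psme1 had 1395, 1621 and 1539 counts after sham and 2541, 2814 and 2375 after tMCAO (0.76 ± 0.13). The genes lie 5912 bases apart on chromosome 14 (Psme1 at 55578360 to 55581528, Psme2 at 55587441 to 55591101), and the groups were apart for both. Psme3, which forms the nuclear PA28 ring, had 1074, 1026 and 1171 counts after sham and 1432, 1548 and 1369 after tMCAO, and its 0.41 ± 0.11 passed the p but not the fold. Psme4, the single-chain activator PA200, had 1414, 1269 and 1415 counts after sham and 1269, 1615 and 1356 after tMCAO (0.043 ± 0.12), with overlap. The inhibitor Psmf1 had 719, 799 and 771 counts after sham and 872, 814 and 805 after tMCAO (0.12 ± 0.082, adjusted p = 0.26), a small difference that did not pass.

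Of the 4 chaperones of core assembly, 2 rose. Psmg1, which pairs with Psmg2 to build the alpha ring, had 203, 198 and 206 counts after sham and 383, 366 and 369 after tMCAO (0.88 ± 0.11). Psmg2 had 314, 307 and 224 counts after sham and 380, 368 and 350 after tMCAO (0.39 ± 0.13), below the limit on the fold. Psmg4 also rose (0.82 ± 0.16), and Psmg3 did not pass (0.45 ± 0.18). None of the 3 base chaperones was called by limma, although 2 had an unadjusted p under 0.05. Psmd9 had 470, 505 and 480 counts after sham and 662, 722 and 560 after tMCAO. Its 0.41 ± 0.11 (adjusted p = 0.0067) passed the p but not the fold. Psmd5 had 954, 816 and 1029 counts after sham and 1087, 1089 and 1037 after tMCAO (0.21 ± 0.10). Each tMCAO library was above each sham library for both. Psmc3ip, at 44, 60 and 47 counts after sham and 99, 96 and 93 after tMCAO, rose by 0.93 ± 0.18, and Psme2b, at 68, 43 and 55 and 73, 57 and 46, gave 0.082 ± 0.26.

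With gene length and GC content regressed out of each library, 17 genes rose instead of 38, where 1256 of all 15982 genes rose. The median of the 31 constitutive subunits was then 0.60, with all 31 above 0 and 16 called. Psmb6 (0.43), Psmb7 (0.43), Psmc1 (0.42), Psmd8 (0.41), Psme1 (0.41), Psme2 (0.55) and Psmg1 (0.51) fell short of the limit on the fold. Psma6 (0.31, adjusted p = 0.076) and Psmb8 passed neither limit (0.41, adjusted p = 0.11), while Psmd14 (0.94) and Psmb5 (0.67) still rose. The 8 neutrophil and monocyte markers moved with this comparison, with sums of 6785, 5103 and 3481 counts in the tMCAO libraries and 351, 1339 and 793 in the sham libraries, and their part in the result was not tested.

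Promoters were read from RefSeq (GRCm38.p6) as the 250 bases before the start that RefSeq gives, and 41 of the 49 genes had one. The letters TGACNNNGC of the antioxidant response element, to which the proteasome regulators Nfe2l1 and Nfe2l2 bind, were found on either strand in 5 of the 41 (Psmb5, Psmb6, Psmc6, Psmd12 and Psmd9) and in 10.2% of all 32851 promoters. The gamma-activated sequence TTCNNNGAA was in 2 (Psmb8 and Psmg1) and in 7.02% of all, and the interferon-stimulated response element, read as GAAA repeated after any pair of bases, in 3 (Psmb3, Psmd4 and Psmd9) and in 2.98% of all. The ETS core CTTCCG was in 19 of the 41, of which 15 were among the 25 constitutive 26S subunits with a promoter, and in 13.6% of all. CCAAT was in 14 (33.9% of all) and GGGCGG in 22 (32.7% of all). These patterns were picked from a wider search with the results known, and a match is a description, not a binding site. The promoters below, 5′ to 3′ on the strand of the gene, are shown for the gene with the largest difference at 24 h (Psmd14, chr2:61711444-61711693, plus strand), for the catalytic subunit with the largest difference (Psmb5, chr14:54617996-54618245, minus strand) and for the neighbouring immunoproteasome genes whose levels are described further on (Psmb8, chr17:34197945-34198194, plus strand, and Psmb9, chr17:34187331-34187580, minus strand).
Psmd14: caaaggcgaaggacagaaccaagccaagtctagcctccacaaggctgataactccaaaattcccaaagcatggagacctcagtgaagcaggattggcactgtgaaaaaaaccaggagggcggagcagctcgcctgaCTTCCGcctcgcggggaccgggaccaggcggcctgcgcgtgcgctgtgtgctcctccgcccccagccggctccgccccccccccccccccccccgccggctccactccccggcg
Psmb5: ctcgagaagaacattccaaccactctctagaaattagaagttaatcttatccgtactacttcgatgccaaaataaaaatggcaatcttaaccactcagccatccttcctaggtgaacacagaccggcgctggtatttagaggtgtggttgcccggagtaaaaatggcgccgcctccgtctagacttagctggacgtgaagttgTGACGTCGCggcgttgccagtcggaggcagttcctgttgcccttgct
Psmb8: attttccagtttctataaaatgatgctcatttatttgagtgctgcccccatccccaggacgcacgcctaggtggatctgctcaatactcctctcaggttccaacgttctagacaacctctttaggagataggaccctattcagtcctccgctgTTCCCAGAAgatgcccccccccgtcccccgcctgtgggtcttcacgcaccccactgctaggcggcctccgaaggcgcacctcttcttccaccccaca
Psmb9: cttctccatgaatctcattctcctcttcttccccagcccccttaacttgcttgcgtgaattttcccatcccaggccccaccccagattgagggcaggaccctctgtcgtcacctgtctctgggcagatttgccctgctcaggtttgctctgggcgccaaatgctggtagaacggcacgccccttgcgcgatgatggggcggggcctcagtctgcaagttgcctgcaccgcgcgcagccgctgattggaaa
For Psmd14 and Psmb5 this start was also the start of the gene in the annotation (GENCODE) from which gene positions are given. For Psmb8 and Psmb9 the RefSeq start lay 405 and 434 bases inside the longer gene of that annotation, so that these windows lie within it. Capitals mark the ETS core of Psmd14, which begins 114 bases before the RefSeq start, the antioxidant response element of Psmb5 at 47 and the gamma-activated sequence of Psmb8 at 97. Psmb9 held none of these 3 patterns and no interferon-stimulated response element in this window. In these windows no match overlapped that of another pattern.

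The contralateral hemisphere served as a second reference. After tMCAO at 24 h, 24 of the 49 genes were higher ipsilaterally and none lower, where 8.51% of all genes were higher. The median was 0.58, and 20 of the 31 constitutive subunits rose (median 0.65). Psmd14 had 985, 894 and 997 counts contralaterally, all below the ipsilateral libraries (0.98 ± 0.092), and Psmb5 had 505, 363 and 386 (0.87 ± 0.16). In the contralateral hemisphere itself none of the 49 genes was called between tMCAO and sham at 24 h by limma, and none had an unadjusted p under 0.05 (405 of all 15982 genes had). The difference between the ipsilateral and the contralateral tMCAO effect, tested as an interaction, was called higher for 32 genes and lower for none, where 4.64% of all genes were called higher. Of the 32, 28 were constitutive 26S subunits, led by Psmd14 (1.11 ± 0.13, adjusted p = 0.00010). With length and GC regressed out, 8 genes were higher ipsilaterally and 15 passed the interaction, where 1038 and 575 of all 15982 genes did.

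By 7 days the constitutive 26S subunits among the 49 genes were near the sham level. None of the 49 genes was called against sham ipsilaterally by limma, where 3.27% of all genes rose. At an unadjusted p under 0.05 there were 9 of the 49, and 4687 of all 15982. The median was 0.16, against 0.025 over all genes, and 46 of the 49 differences were above 0. The tMCAO libraries lay above the sham libraries for 8 of the 49, where 13.4% of all genes did. Psmd14 had 1017, 986 and 1069 counts after sham and 1265, 1121 and 1053 after tMCAO (0.16 ± 0.092), with overlap. Its 95% interval, -0.033 to 0.35, lay below that at 24 h, 0.96 to 1.35. Psmb5 had 452, 376 and 540 counts after sham and 572, 435 and 494 after tMCAO (0.14 ± 0.16), and its libraries overlapped too. Psme4 had 1025, 976 and 1076 counts after sham and 1342, 1371 and 1173 after tMCAO (0.33 ± 0.12, adjusted p = 0.066), without overlap but not past the test.

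Tested directly, the ipsilateral tMCAO effect was smaller at 7 days than at 24 h for 23 genes and larger for none, where 5.68% of all genes were smaller. Of the 23, 20 were constitutive 26S subunits, with Psmd14 at -0.99 ± 0.13 (adjusted p = 0.00011) and Psmb2, a beta subunit without catalytic site, at -0.97 ± 0.14. The others were Psme2 (-0.81 ± 0.17), Psme3 (-0.60 ± 0.15) and Psmg1 (-0.70 ± 0.16). Part of this interaction lay in the sham libraries. Over the 31 constitutive subunits its median was -0.68, where 7 days minus 24 h had a median of -0.43 after tMCAO and 0.19 after sham. For Psme2 the sham libraries differed by 0.71 between the times and the tMCAO libraries by -0.10 ± 0.12 (adjusted p = 0.60). Psme3 did not pass with median centring (-0.50, adjusted p = 0.056) or with the compared groups alone in the fit (adjusted p = 0.051). With length and GC regressed out, 8 genes passed, where 663 of all 15982 genes were smaller.

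Between the ipsilateral tMCAO libraries of the 2 times, without the sham libraries, 7 genes were lower at 7 days, where 8.44% of all genes were, and 1 was higher, where 3.72% were. The 7 were Psmd14, Psmd3, Psmd12, Psmd11, Psmc4, Psmb2 and Psmb5. Psmd3, a lid subunit, had 4658, 4542 and 3317 counts at 24 h and 2569, 2272 and 2724 at 7 days (-0.71 ± 0.11). Psmb2 had 2775, 2856 and 2259 and 2043, 1701 and 1439 (-0.61 ± 0.10). The times did not overlap for either. The gene that was higher at 7 days was Psmb9, with 361, 413 and 421 counts at 24 h and 717, 734 and 697 at 7 days (0.85 ± 0.19, adjusted p = 0.0050). Psmb8 (0.46 ± 0.17, adjusted p = 0.055) and Psmb10 (0.39 ± 0.18, adjusted p = 0.13) had the same sign as Psmb9 without passing. The count of 7 rested on single libraries, since it was 3 without tMCAO 24 h replicate 1 or replicate 2 and 13 without replicate 3. With library medians centred, which moved the median of all genes from -0.04 to 0.07, 3 were lower and 1 higher. Of all 15982 genes 1033 were then lower and 939 higher. With length and GC regressed out 2 were lower and 2 higher, where 1067 and 1060 of all genes were.

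Immunoproteasome genes were higher at 7 days than at 24 h in sham animals too. Between the sham times Psmb8, Psmb9 and Psme2 rose in the ipsilateral hemisphere, where 0.300% of all genes rose, and the same 3 genes rose in the contralateral hemisphere, where 0.232% did. Same-numbered sham libraries of the hemispheres deviated together, so that the second hemisphere is no independent repeat of the first. Over the 7 comparisons among sham and contralateral groups they were the members called, where 0.563% of all genes were called in at least 1. Psmb8 (chromosome 17, 34197790 to 34201454) had 1051, 1051 and 928 counts at 24 h and 1796, 2229 and 1558 at 7 days ipsilaterally (0.87 ± 0.17, adjusted p = 0.016). Contralaterally it had 979, 1060 and 1094 counts at 24 h and 1710, 2469 and 1718 at 7 days (0.89 ± 0.17, adjusted p = 0.020). The times did not overlap in either hemisphere.

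Psmb9, 10025 bases from Psmb8 (34181988 to 34187764), had 366, 377 and 312 counts at 24 h and 721, 910 and 528 at 7 days ipsilaterally (1.0 ± 0.19, adjusted p = 0.018). Contralaterally it had 342, 395 and 374 counts and 683, 892 and 651 (0.99 ± 0.19). Psmb9 thus went the way of its neighbour, without overlap. Psme2 had 973, 1074 and 992 counts at 24 h and 1572, 1870 and 1542 at 7 days ipsilaterally (0.71 ± 0.12), and 1034, 1125 and 1132 against 1481, 1996 and 1511 contralaterally (0.59 ± 0.12). With median centring Psme2 did not pass contralaterally (0.60, adjusted p = 0.056). Psmb10 had 1019, 1104 and 956 counts at 24 h and 1428, 2053 and 1382 at 7 days ipsilaterally (0.64 ± 0.18, adjusted p = 0.11). Its libraries were apart as well, but it did not pass, and neither did Psme1 (0.58 ± 0.13, adjusted p = 0.053). The constitutive subunits had a median of 0.19 ipsilaterally and 0.17 contralaterally, and none was called.

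These differences rested on few libraries. Replicate 2 of the sham group at 7 days was the highest for Psmb8, Psmb9 and Psme2 in both hemispheres. Without it the ipsilateral differences were 0.73 for Psmb8, 0.81 for Psmb9 and 0.62 for Psme2, and none passed (adjusted p = 0.11, 0.13 and 0.064). Over the 6 libraries left out in turn ipsilaterally, the call was lost 4 times for Psmb8, 5 times for Psmb9 and 2 times for Psme2, and contralaterally 4, 5 and 4 times. With length and GC regressed out none passed in either hemisphere (0.77, 0.88 and 0.55 ipsilaterally). In the ipsilateral sham libraries, 2 T cell markers summed to 14, 26 and 12 counts at 24 h and 15, 19 and 46 at 7 days, 3 B cell markers to 14, 22 and 19 and 21, 41 and 44, and the neutrophil and monocyte markers to 331, 418 and 1927 at 7 days. Their part in the result was not tested, and the time after surgery and any handling that differed between the times cannot be told apart.

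**Figure D3:**
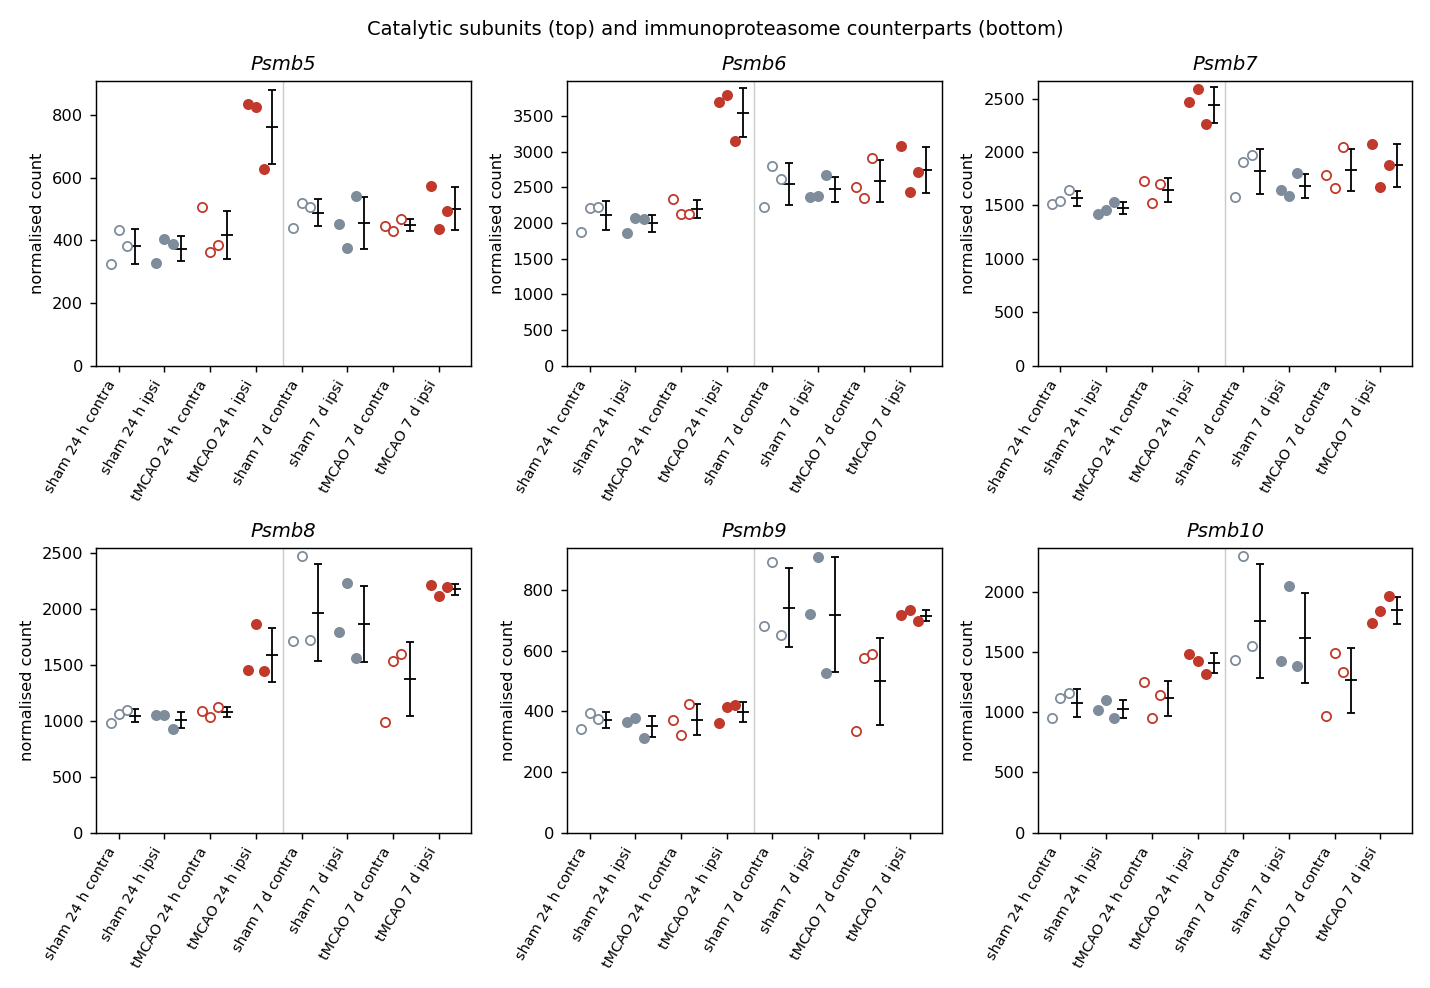
Normalised counts of the constitutive catalytic subunits and of their immunoproteasome counterparts in 24 libraries (grey, sham; red, tMCAO; open, contralateral; filled, ipsilateral; bar, mean ± SD, n = 3). Psmb5, Psmb6 and Psmb7 are highest ipsilaterally 24 h after tMCAO, whereas Psmb9 is higher in the sham libraries at 7 days than at 24 h.

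After tMCAO at 7 days, 1 of the 49 genes was higher ipsilaterally than contralaterally, which is near the 3.03% of all genes that were. It was Psmb8, with 992, 1530 and 1597 counts contralaterally and 2214, 2115 and 2193 ipsilaterally (0.69 ± 0.17, adjusted p = 0.0050). The hemispheres did not overlap, and contralateral replicate 1 was the lowest library. Without it the difference was 0.48 (adjusted p = 0.051) and no gene passed, whereas there were 5 genes without contralateral replicate 2 and 3 without replicate 3. Contralateral replicate 1 also stood apart in markers of other cells. The neuronal markers summed to 20725, 7184 and 7587 counts in the 3 contralateral libraries, the 7 astrocyte markers to 47512, 16097 and 19232 and the 6 oligodendrocyte markers to 105309, 67960 and 56258, against 947, 945 and 1411, 8933, 9003 and 12565 and 53789, 69220 and 71016 ipsilaterally. Their part in the difference was not tested. Psmb9 had 334, 576 and 588 counts contralaterally and 717, 734 and 697 ipsilaterally (0.56 ± 0.19, adjusted p = 0.054). Psmb10 had 970, 1495 and 1338 and 1743, 1841 and 1966 (0.57 ± 0.18, adjusted p = 0.031). Both were apart between the hemispheres without being called.

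Psmb8 was also the gene whose tMCAO effect at 7 days was higher ipsilaterally than contralaterally (0.77 ± 0.23, adjusted p = 0.040). Here too 1 of 49 is near the share of all genes, 1.19%. Its parts had opposite signs, 0.24 ± 0.17 ipsilaterally and -0.53 ± 0.17 contralaterally, and neither passed by itself. With single libraries left out, 7 of 12 fits lost this call (0.55 to 0.90, adjusted p = 0.018 to 0.14). Each of these fits left out 1 of the 3 ipsilateral tMCAO libraries, contralateral tMCAO replicate 1, ipsilateral sham replicate 1 or 3, or contralateral sham replicate 2.

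Because genes differ in length, each catalytic gene was set against its counterpart in counts per kilobase of the longest coding transcript. The ratio of Psmb8 to Psmb5 was 1.77, 1.44 and 1.32 in the ipsilateral sham libraries at 24 h and 0.961, 1.25 and 1.27 in the tMCAO libraries. At 7 days it was 2.19, 3.27 and 1.59 after sham and 2.14, 2.69 and 2.45 after tMCAO. The ratio of Psmb9 to Psmb6 was 0.116, 0.107 and 0.0897 after sham and 0.0578, 0.0643 and 0.0789 after tMCAO at 24 h. For both pairs each tMCAO value at 24 h lay below each sham value. The ratio of Psmb10 to Psmb7 was 0.633, 0.67 and 0.551 after sham and 0.534, 0.486 and 0.518 after tMCAO at 24 h, with the same order. Contralaterally 24 h after tMCAO, the ratio of Psmb8 to Psmb5 was 1.19, 1.57 and 1.60, which overlapped the ipsilateral tMCAO values. The ratios of Psmb9 and Psmb10 to their counterparts did not overlap between these hemispheres and were lower ipsilaterally. At 7 days the sham and tMCAO ratios overlapped for all 3 pairs. With 3 values against 3, an exact permutation test cannot go below p = 0.1, and none is given.

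**Figure D4:**
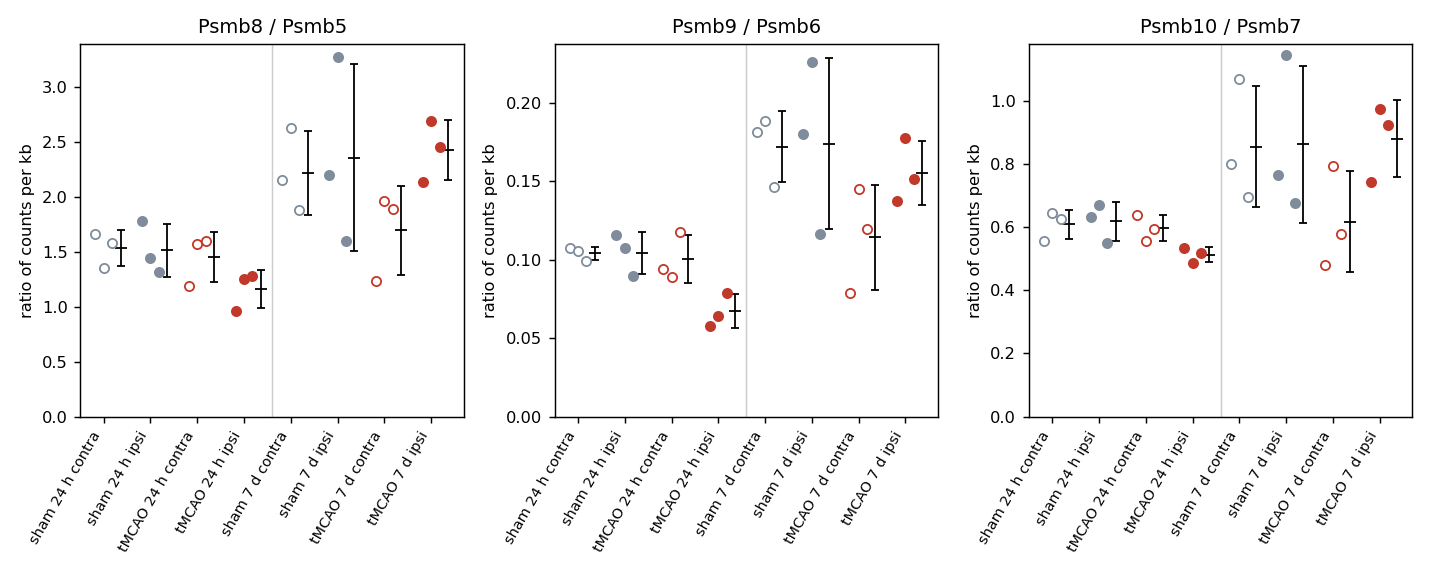
Ratio of each immunoproteasome subunit to the constitutive subunit it replaces, in counts per kilobase, for 24 libraries (grey, sham; red, tMCAO; open, contralateral; filled, ipsilateral; bar, mean ± SD, n = 3). The 3 ipsilateral tMCAO libraries at 24 h are below the 3 ipsilateral sham libraries of that time in each panel.

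The activators differed in where they were high. Ipsilaterally, Psme1 had 1365 ± 103 counts per kilobase after sham and 2317 ± 199 after tMCAO at 24 h, and 2055 ± 331 and 2450 ± 45.2 at 7 days (mean ± SD, n = 3). Psme2 had 1053 ± 55.8 and 2032 ± 146 counts per kilobase at 24 h and 1727 ± 188 and 1893 ± 27.7 at 7 days. For both, the sham mean at 24 h was the lowest of the 4. After tMCAO at 7 days, Psme1 had 1492, 2244 and 2027 counts contralaterally and 2666, 2752 and 2754 ipsilaterally (0.52 ± 0.13, adjusted p = 0.0087), apart but below the limit on the fold. Psme4 had 1414, 1269 and 1415 counts in the ipsilateral sham libraries at 24 h and 1025, 976 and 1076 at 7 days (-0.41 ± 0.12, adjusted p = 0.13). It was lower at 7 days without overlap in both hemispheres, and neither difference passed.

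**Figure D5:**
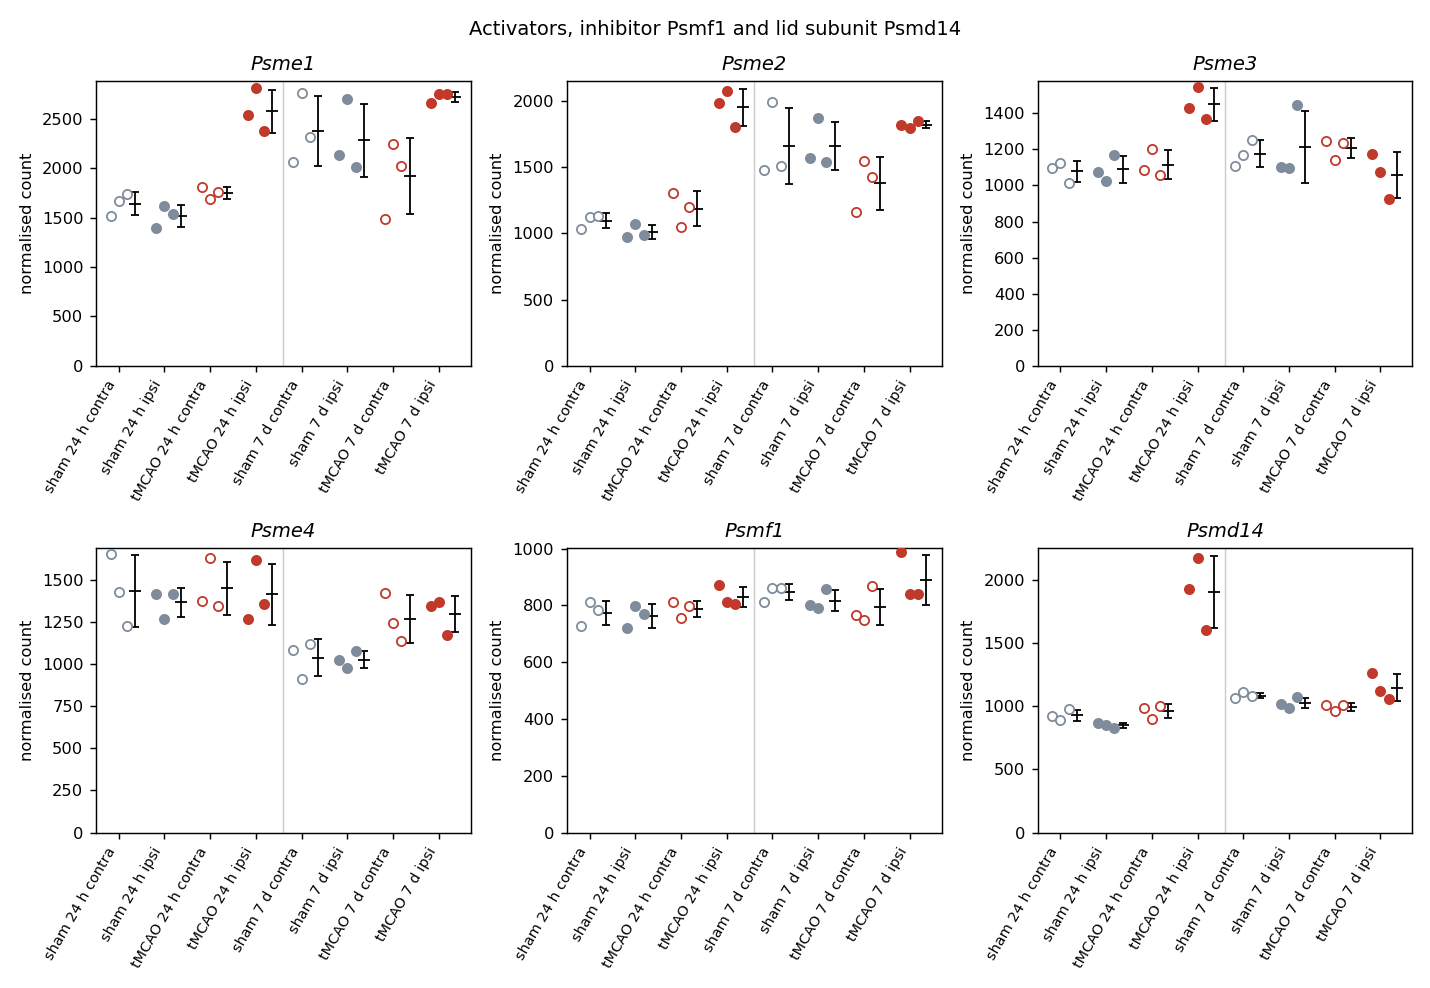
Normalised counts of the activators, the inhibitor Psmf1 and the lid subunit Psmd14 in 24 libraries (grey, sham; red, tMCAO; open, contralateral; filled, ipsilateral; bar, mean ± SD, n = 3). Psmd14 is highest in the 3 ipsilateral libraries 24 h after tMCAO, at 1602 to 2170 counts.

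Some partners of the proteasome were also called. Of 27 tested genes for ubiquitin, ubiquitin receptors, shuttles, associated deubiquitinases and regulators of proteasome genes, 5 rose ipsilaterally at 24 h against sham (among them Vcp, Adrm1, Sem1 and Txnl1) and none fell, with a median of 0.26, where 10.0% of all genes rose. Vcp, the segregase that extracts ubiquitinated proteins, had 2626, 2751 and 2781 counts after sham and 5318, 5746 and 4388 after tMCAO (0.91 ± 0.091). Adrm1, a ubiquitin receptor of the 19S particle, had 587, 591 and 656 and 1335, 1190 and 892 (0.88 ± 0.12). Sem1, a small lid subunit, had 1491, 1693 and 1610 and 2569, 2946 and 2425 (0.72 ± 0.12). The groups were apart for these 3. Sem1 was the partner called at 7 days, with 1930, 1838 and 2063 counts after sham and 3283, 2489 and 3205 after tMCAO (0.61 ± 0.12, adjusted p = 0.00087), and 1 of 27 is near the 3.27% of all genes that rose then.

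For antigen processing and its interferon regulators, 15 genes were tested. Against sham, 2 rose ipsilaterally at 24 h, Tap1 and H2-K1 (median 0.37), and none was called at 7 days (median 0.098). The 2 of 15 are near the 10.0% of all genes that rose at 24 h. Tap1, a subunit of the peptide transporter, had 658, 699 and 654 counts after sham and 1053, 1422 and 901 after tMCAO at 24 h (0.72 ± 0.13, adjusted p = 0.00047). Its annotated gene overlaps that of Psmb9 by 212 bases on the opposite strand, and whether the counting used strand is not given in the sources used here. Irf1 (0.069 ± 0.099) and Nlrc5 (-0.012 ± 0.27), which drive these genes after interferon, did not pass. Between the sham times 3 of the 15 rose ipsilaterally, where 0.300% of all genes did, and 2 contralaterally, where 0.232% did. They were Tap1 (0.76 ± 0.13 ipsilaterally, 0.65 ± 0.13 contralaterally) and H2-K1 (0.98 ± 0.17 and 0.82 ± 0.17) in both hemispheres and H2-D1 (0.72 ± 0.16) ipsilaterally. Ipsilaterally Irf1 gave 0.36 ± 0.099 and Nlrc5 0.61 ± 0.27, and neither passed.

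Over the 24 libraries, the 5 genes outside the proteasome whose log2 levels followed Psmb8 most closely were Isg15 (Pearson's r = 0.959), Tap2 (0.958), Lsm6 (0.936), Crtap (0.935) and Lgals3bp (0.935). The points share libraries and groups, so these values describe likeness only. Isg15, an interferon-induced ubiquitin-like protein, had 549, 623 and 558 counts in the ipsilateral sham libraries at 24 h and 1239, 1536 and 1229 at 7 days (1.20 ± 0.21, adjusted p = 0.0081). After tMCAO it had 723, 1334 and 765 counts at 24 h and 1460, 1331 and 1744 at 7 days. Like Psmb8, it was higher in the sham libraries at 7 days than at 24 h without overlap. Because Isg15 was picked by its likeness to Psmb8 over these libraries, this is no separate result.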

How the data were processed

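Each library held microvessels of 3 pooled hemispheres, with 9 animals per group. Per the submitters' processing notes, reads were aligned with STAR 2.5.2b to GRCm38, counted with featureCounts 1.5.1 and normalised with DESeq2 1.6.2 (the paper's methods give other versions of STAR and DESeq2). Libraries that the authors took for outliers were not analysed here. The deposited values are normalised counts that the authors rounded to whole numbers, and were therefore treated as a score, to which no count model was applied. Members and lists were chosen with earlier results of these data known.

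The 15982 genes whose mean exceeded 5 were tested as log2(value + 1) with limma 3.58.1 in R 4.3.3, in a single model of the 8 groups with a mean-variance trend and Benjamini-Hochberg adjustment. The fit was run on simulated libraries drawn independently of each other, which does not test it under the deviations that hemispheres share here. Tables and figures were made with Python 3.11.15, pandas 2.3.3, numpy 2.4.6 and matplotlib 3.10.9. Alternatives were a pseudocount of 0.5, no filter, a mean above 20, median centring, no limit on the fold, only the compared groups, a replicate block, a length and GC correction (splines with 5 degrees of freedom, GENCODE lengths) and each library left out. Leaving out libraries of the control comparisons was added after seeing the data. Members are counted by class. Library values are given for the catalytic, immunoproteasome and activator genes, for the members with the largest and smallest difference at 24 h in each other class, and for members called at 7 days, among controls or against the general direction. Psmd3, Psmb2, Psmg3, Psmg4, Isg15, Vcp, Adrm1 and Sem1 were given values after these were seen. Same-numbered sham hemispheres deviated together (correlations of 0.32, 0.41 and 0.15 at 24 h and 0.32, 0.44 and 0.47 at 7 days), a pairing that the labels give by number only. After tMCAO the correlations were 0.066, 0.36 and 0.33 at 24 h and 0.059, 0.31 and 0.064 at 7 days. Of the 49 genes, 11 overlap another gene of the table. Amounts of reads per library were not used, so the precision rests on the spread between libraries. Some genes of the fixed lists count in the totals but are not reported here by name.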

Additional observations from a re-analysis of the deposited data

Results flagged for a closer look

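The ipsilateral tMCAO effect differed between the times for 23 of the 49 genes, all smaller at 7 days by the interaction in limma. The log2 effect at 7 days minus that at 24 h was -0.99 for Psmd14, -0.88 for Psmb5, -0.88 for Psmc4, -0.83 for Psmb3, -0.81 for Psme2, -0.77 for Psma5, -0.70 for Psmg1, -0.68 for Psmb6 and -0.60 for Psme3. With each of 12 libraries left out in turn, the call was lost 2 times for Psmb5 (-1.02 to -0.75; without replicate 1 of sham or of tMCAO at 24 h) and 4 times for Psme3 (-0.68 to -0.47). Psme3 was also lost with median centring and with the compared groups alone in the fit, and Psmb6 fell below the limit on the fold with median centring (-0.57). With length and GC regressed out, Psme2 (-0.56, adjusted p = 0.057), Psme3 (-0.47, adjusted p = 0.061) and Psmb6 (-0.41) were among the genes that were not called.

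At 24 h the tMCAO effect differed between the hemispheres for 32 genes, all higher ipsilaterally. The difference between the log2 effects was 1.11 for Psmd14, 1.07 for Psma5, 1.02 for Psmb3, 1.02 for Psmc3ip, 0.98 for Psmc4, 0.97 for Psmg1, 0.89 for Psmb5, 0.84 for Psme2, 0.76 for Psmb6, 0.71 for Psmb1, 0.67 for Psme1 and 0.65 for Psmb7. With each of 12 libraries left out, the call was lost 9 times for Psme1 (0.60 to 0.72), 4 times for Psmb5 (0.79 to 1.03) and 2 times for Psmc3ip (0.93 to 1.15). At 7 days 1 of the 49 genes passed this test, Psmb8 with 0.77, which is near the 1.19% of all genes called higher. Groups of 3 libraries were not tested for single outlying libraries.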

How the results depend on the processing

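Counts over all 15982 genes at the same setting and in the same direction stand in brackets. Median centring gave 31 genes (1330) against sham at 24 h. With length and GC regressed out, the counts were 17 (1256) against sham at 24 h, 8 (1038) between hemispheres at 24 h and 2 (1067) lower at 7 days than at 24 h after tMCAO. They were 8 (663) for the interaction with time, 15 (575) and 2 (956) for the interaction with hemisphere at 24 h and 7 days, and 0 among control groups. The cause was not tested. Without a limit on the fold, the counts were 38 (2305) between hemispheres at 24 h, 4 (805) at 7 days, 2 (970) against sham at 7 days and 29 (1955) lower at 7 days than at 24 h. Median centring gave 3 (579) between hemispheres at 7 days and 3 (1033) lower at 7 days than at 24 h. The counts of 2, and the 3 lower at 7 days, were not above the share over all genes. When the fit held the compared groups alone, 0 genes (290) passed between hemispheres at 7 days and 0 (91) passed the interaction with hemisphere at that time. A pseudocount of 0.5, no filter and a mean above 20 changed none of these counts. With 1 library left out, counts ran from 35 to 38 and 0 to 0 against sham at 24 h and 7 days, 20 to 34 and 0 to 5 between hemispheres, 3 to 13 lower at 7 days than at 24 h, 18 to 27 for the interaction with time and 27 to 34 and 0 to 3 for that with hemisphere. Among control groups they ran from 3 to 3, counted over both hemispheres (chosen after seeing the data). That range shows no stability, since comparisons without the library left out kept their calls. Within a hemisphere each of the 3 genes lost its call in 2 to 5 of 6 fits.

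For comparisons between hemispheres, the replicate block joined the same-numbered hemispheres of a surgery and time. For all other comparisons it was the replicate number across different animals, with only the compared groups in the fit. Calls lost in those comparisons therefore do not reflect a pairing of animals. With the block, 3 genes (380 over all genes) in place of 1 passed the interaction with hemisphere at 7 days and 17 (688) in place of 23 that with time. The counts were 38 (1314) and 0 (261) against sham, 24 (1613) and 1 (681) between hemispheres and 7 (1008) lower between times. They were 33 (1224) for the hemisphere interaction at 24 h and 3 among control groups over both hemispheres. Between the sham times the block kept 3 ipsilaterally but 1 contralaterally, where Psmb8 (adjusted p = 0.072) and Psme2 (adjusted p = 0.13) did not pass. In the interaction with time, Psmb5 (adjusted p = 0.064), Psma5 (adjusted p = 0.052) and Psme3 (adjusted p = 0.090) did not pass with it. The deviations of same-numbered hemispheres correlated positively in all 3 pairs of each time. The correlations ran from 0.15 to 0.47 after sham and from 0.059 to 0.36 after tMCAO. Same-numbered sham libraries of the 2 times, which are of different animals, gave 0.0092, 0.10 and 0.41 ipsilaterally and 0.039, -0.088 and 0.051 contralaterally.

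None of the differences against sham that changed sign was called, and their direction is not settled. With length and GC regressed out, Psmb9 gave -0.11 at 24 h and -0.024 at 7 days against sham, Psme2b -0.28 at 24 h and Psme2 -0.0074 at 7 days. Psme4 at 24 h gave -0.020 with median centring. With 1 library left out, Psme4 ran from -0.057 to 0.12 and Psme2b from -0.085 to 0.24 at 24 h, and Psmb9 from -0.18 to 0.21 at 7 days.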

Other observations

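In the contralateral hemisphere at 7 days, all 15 antigen-processing genes tested were lower after tMCAO than after sham, with a median log2 difference of -0.41, and limma called none (median of all genes 0.0080). In the same comparison 7 of 7 neuronal markers (median 0.71), 7 of 7 astrocyte markers (0.79) and 6 of 6 oligodendrocyte markers (0.40) were higher and 6 of 6 microglial markers lower (-0.25), with none called, and contralateral tMCAO replicate 1 had the highest neuronal, astrocyte and oligodendrocyte sums. Their part in the difference was not tested. Psmb8 gave -0.53 ± 0.17 (adjusted p = 0.34), Psmb9 -0.60 ± 0.19 (adjusted p = 0.35) and Psmb10 -0.46 ± 0.18 (adjusted p = 0.39), and none of these passed. Isg15, picked by its likeness to Psmb8, had 1220, 1591 and 1318 counts after sham and 642, 952 and 1070 after tMCAO (-0.66 ± 0.21, adjusted p = 0.34). The constitutive 26S subunits had a median of -0.024 in that comparison.

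Ipsilaterally at 7 days, 4 of 4 proliferation markers tested were called higher after tMCAO than after sham (median 2.23), where 3.27% of all genes were. None of the 49 proteasome genes was called at that time. The 10 endothelial markers had a median of -0.27 at 24 h, when 2 of them fell (Slco1c1 and Abcb1a). Of 9 pericyte and mural markers 1 fell at 24 h (Rgs5), of 7 astrocyte markers 5 fell, of 6 oligodendrocyte markers 2 fell and of 6 microglial markers 1 rose (Aif1), where 8.23% of all genes fell and 10.0% rose.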
